A study of Homo sapiens with 4 samples.

Results

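The subject is 10 genes through which YAP and TAZ activity is usually read: CCN1, CCN2, ANKRD1, AMOTL2, AJUBA, LATS2, AXL, CRIM1, PTPN14 and FJX1. They were chosen by symbol, and all 10 were found under these symbols among the 59409 gene symbols of the deposited table. Polyadenylated RNA had been sequenced of the line 786-O, human cells of a clear cell renal carcinoma without functional VHL protein, as 2 libraries of DEK knockout cells and 2 negative control libraries labelled wild type. The knockout cells were clones, sorted as single cells after a Cas9-expressing clone received guides against DEK, which encodes a chromatin protein, and the control columns carry the name Cas9. The labels do not name the clone behind each library or say whether replicates were separate cultures, so p-values reflect the spread among these libraries alone, part or all of which may be technical. The comparison asks how expression differs in cells without intact DEK.

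YAP and TAZ are transcriptional coactivators that bind DNA through the TEAD family of transcription factors. The Hippo kinases restrain them: MST kinases activate LATS kinases, which phosphorylate YAP and TAZ and keep them out of the nucleus. Several targets, among them LATS2, AMOTL2, AJUBA and PTPN14, encode regulators of the same pathway, so that its output feeds back on it. The pathway is known for sensing cell contact and mechanical tension in epithelia, the kidney included.

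The TEAD family recognises the letters GGAATG, or CATTCC on the other strand. RefSeq promoter sequences (GRCh38.p14) were matched for 8 of the 10 genes, as 11 windows of 250 bases ending just before a transcript start. No promoter sequence was available for CCN1 and CRIM1, so theirs were not searched. They are printed for CCN2 and ANKRD1, which rose together and whose windows held more than 1 match, and for AMOTL2, which fell, with each match in capitals.
CCN2, chr6:131951373-131951622, minus strand: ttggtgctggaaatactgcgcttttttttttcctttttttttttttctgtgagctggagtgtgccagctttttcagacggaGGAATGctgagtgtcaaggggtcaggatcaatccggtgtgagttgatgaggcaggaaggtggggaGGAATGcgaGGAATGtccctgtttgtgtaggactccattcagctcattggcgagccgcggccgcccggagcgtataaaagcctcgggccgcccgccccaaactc
ANKRD1, chr10:90921088-90921337, minus strand: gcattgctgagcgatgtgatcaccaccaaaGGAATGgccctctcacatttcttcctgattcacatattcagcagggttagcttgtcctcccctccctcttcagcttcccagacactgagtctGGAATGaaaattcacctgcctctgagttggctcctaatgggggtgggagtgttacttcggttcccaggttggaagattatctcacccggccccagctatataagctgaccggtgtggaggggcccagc
AMOTL2, chr3:134374448-134374697, minus strand, one of its 2 windows: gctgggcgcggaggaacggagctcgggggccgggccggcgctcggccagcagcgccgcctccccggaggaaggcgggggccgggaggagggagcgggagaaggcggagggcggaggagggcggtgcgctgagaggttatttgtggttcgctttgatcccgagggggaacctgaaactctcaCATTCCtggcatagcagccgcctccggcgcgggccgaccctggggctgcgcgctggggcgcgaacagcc
The CCN2 window held 3 matches, which began 169, 104 and 95 bases before the start, so that the last pair lay close together. The ANKRD1 window held 2, which began 220 and 128 bases before the start. PTPN14 had 1 match, and AMOTL2, AJUBA and AXL had 1 match in one of their 2 windows each. The windows of LATS2 and FJX1 had none of these letters. Of 35116 human promoter windows of the same length, 11.9% held at least 1 match and 0.94% held at least 2. For AP-1 the letters TGANTCA were searched on both strands, with any base allowed at N, and 6.57% of all windows held them. In the 11 windows they occurred once, as tgattca in the ANKRD1 window. That match began 195 bases before the start and lay apart from the TEAD matches. The CArG box of serum response factor, searched on both strands, was in none of the 11 windows, which do not include CCN1 or CRIM1, and in 1.16% of all windows. A match describes letters and does not show that a factor binds there.

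The values were TPM, transcripts per 1000000, a unit scaled by gene length, so that levels of different genes can be set side by side. The table gives no read numbers, and the depth behind each value is therefore unknown. DEK itself had 31.4 and 15.7 TPM in DEK knockout libraries 1 and 2, against 95.02 and 76.3 TPM in control libraries 1 and 2. It was 3.64-fold lower (log2 fold change -1.89, SE 0.33, limma adjusted p = 0.030), and the mRNA remained present in both knockouts. The renal factor PAX8 stood at 140.1 and 160.4 TPM in the knockouts, against 153 and 142 TPM in the controls. Markers of other cells were low: the 8 fibroblast markers summed to 2.30 to 3.07 TPM in the knockouts, against 2.64 to 3.11 TPM in the controls. The 6 endothelial markers summed to 0.225 to 0.507 TPM in the knockouts, against 0.0186 to 0.0753 TPM in the controls, and the 6 blood markers to 0.492 to 0.595 TPM, against 0.362 to 0.813 TPM. PDGFRA, COL3A1, CD3E and HBB were listed at 0 in all 4 libraries.

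The YAP and TEAD targets did not move as a block. Of the 10 genes, 3 rose in the knockout (CCN2, ANKRD1 and FJX1), 5 fell (CCN1, AMOTL2, AJUBA, LATS2 and CRIM1), and AXL and PTPN14 did not pass the test. The test was limma on log2(TPM + 1) over the 15815 genes that reached 1 TPM in 2 or more libraries, and a gene passed at a Benjamini-Hochberg adjusted p under 0.05. All 10 genes exceeded 1 TPM in every library. By that rule 17.7% of all tested genes passed, 9.06% upwards and 8.67% downwards, and among genes with a mean of at least 20 TPM, a level that all 10 exceed, 24.6% passed. The median log2 fold change was -0.25 for the 10 genes and -0.058 for all tested genes. Both knockouts lay on the same side of both controls for 8 of the 10 genes, 3 above and 5 below. Such separation held for 68.3% of all tested genes, 29.2% above and 39.0% below, and so says little of these genes. In bulk RNA, fewer cells with a transcript and less of it in each cell cannot be told apart.

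**Figure D1:**
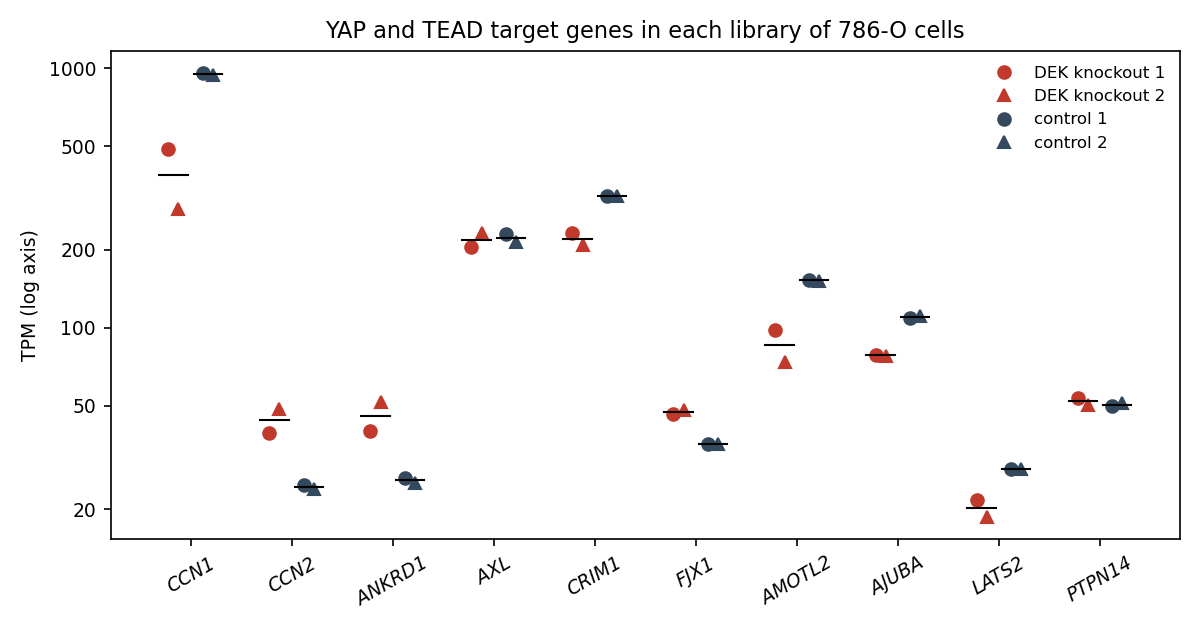
TPM (log axis) of the 10 YAP and TEAD targets in each library, with DEK knockout in red to the left of control in blue. Circles are replicate 1, triangles replicate 2 and bars group means. CCN1, AMOTL2, AJUBA, LATS2 and CRIM1 lie lower in both knockouts, CCN2, ANKRD1 and FJX1 lie higher, and the groups overlap for AXL and PTPN14.

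The secreted matricellular proteins CCN1 and CCN2, which bind integrins and are the most used readouts of YAP activity, moved in opposite directions. CCN1 (chromosome 1, 85580761 to 85583962, GRCh38) had 486 and 287 TPM in the knockouts, against 957 and 944 TPM in the controls. Both knockouts were far below both controls, but they also differed from each other, whereas the controls nearly coincided. The mean was 387 ± 140.5 TPM in the knockouts and 950.5 ± 9.40 TPM in the controls (SD, n = 2 per group), 2.46-fold lower (log2 fold change -1.34, SE 0.25, adjusted p = 0.033). CCN1 had the largest change of the 10 genes in absolute log2 terms and their highest level in every library, above 98.98% of tested genes by its mean over all libraries.

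CCN2 (chromosome 6, 131948176 to 131951373) had 39.5 and 48.6 TPM in the knockouts, against 24.8 and 24.0 TPM in the controls. The 2 groups did not overlap, and the lower knockout value was well above the higher control value. CCN2 rose 1.80-fold (log2 fold change 0.82, SE 0.12, adjusted p = 0.024). The ratio of CCN1 to CCN2 was 12.3 and 5.92 in the knockouts, against 38.6 and 39.3 in the controls. CCN1 thus remained the more abundant of the pair by TPM in every library, while the distance between them narrowed in both knockouts. An antisense gene, AL133346.1, overlaps CCN2 and had 2.83 and 4.27 TPM in the knockouts, against 2.995 and 2.89 TPM in the controls. Strand use in counting is not given in these sources, so reads of the overlapping pair may not be separated. Of the other CCN family genes, CCN3 had 3.89 and 1.95 TPM in the knockouts, against 0.923 and 0.890 TPM in the controls (log2 fold change 0.99, adjusted p = 0.077), and did not pass the test. CCN4, CCN5 and CCN6 stayed below the filter, with CCN6 listed at 0 throughout.

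ANKRD1, an ankyrin repeat protein of the nucleus and of the muscle sarcomere, followed CCN2 closely in level and change. It lies on chromosome 10 (90912096 to 90921276) and had 39.9 and 51.7 TPM in the knockouts, against 26.5 and 25.2 TPM in the controls. The knockouts were both above the controls, with knockout 2 the higher, as for CCN2. ANKRD1 rose 1.77-fold (log2 fold change 0.79, SE 0.14, adjusted p = 0.032). Its paralog ANKRD2 went the other way, with 1.04 and 0.265 TPM in the knockouts, against 9.54 and 8.21 TPM in the controls (13.6-fold lower, adjusted p = 0.016). ANKRD23, another paralog, had 6.17 and 7.502 TPM in the knockouts, against 5.66 and 5.27 TPM in the controls, and did not pass (adjusted p = 0.25).

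The targets at the cell surface and in the secretory path each behaved differently. AXL, a receptor tyrosine kinase whose ligand is GAS6 (chromosome 19, 41219203 to 41261766), had 205 and 232 TPM in the knockouts, against 229.9 and 214 TPM in the controls. The groups overlapped, and the log2 fold change was -0.023 with a 95% interval of -0.25 to 0.21 (adjusted p = 0.87), which leaves room for modest changes either way. GAS6 rose, with 122 and 139 TPM in the knockouts, against 101 and 97.9 TPM in the controls (1.31-fold, adjusted p = 0.047). PROS1, protein S, a ligand of the related receptors TYRO3 and MERTK, fell to 13.4 and 12.4 TPM in the knockouts, against 29.8 and 30.01 TPM in the controls (2.32-fold lower, adjusted p = 0.012). TYRO3 and MERTK, with log2 fold changes of 0.22 and -0.14, did not pass.

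CRIM1, a transmembrane protein with cysteine-rich repeats that binds bone morphogenetic proteins (chromosome 2, 36355926 to 36551135), had 233 and 209 TPM in the knockouts, against 321 and 322 TPM in the controls. The groups were separate and the controls differed by less than 1 TPM. It fell by 0.54 on the log2 scale (SE 0.076, adjusted p = 0.021). The gene FEZ2 overlaps it on the opposite strand and had 50.7 and 59.0 TPM in the knockouts, against 57.7 and 57.5 TPM in the controls, and the antisense gene AC007378.1 had 28.2 and 31.5 TPM, against 39.7 and 33.9 TPM. KCP, which like CRIM1 has cysteine-rich repeats, fell to 2.57 and 2.06 TPM in the knockouts, against 8.87 and 8.35 TPM in the controls (3.72-fold lower, adjusted p = 0.015). FJX1 (chromosome 11, 35618419 to 35620868) is the human relative of four-jointed, which in Drosophila encodes a Golgi kinase acting on the cadherin Fat. It had 46.6 and 48.1 TPM in the knockouts, against 35.8 and 35.6 TPM in the controls. Replicates were close in both groups, and FJX1 rose 1.33-fold (log2 fold change 0.40, SE 0.077, adjusted p = 0.036). That rise was the smallest among the genes of the 10 that rose, and it did not pass once the trend of each library with GC content was removed (log2 fold change 0.27, adjusted p = 0.067). FJX1 had the highest transcript GC content of the 10 genes, at 63.8%.

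Of the 4 targets that feed back on the pathway, 3 fell (AMOTL2, AJUBA and LATS2). Of all 10 targets 5 fell, and of all tested genes 8.67% fell. Among genes with a mean of at least 20 TPM, 24.6% passed in either direction. AMOTL2, an angiomotin family protein that holds YAP at junctions and in the cytoplasm (chromosome 3, 134355874 to 134375479), had 98.2 and 73.8 TPM in the knockouts, against 153 and 151 TPM in the controls. Knockout 2 was the lower, as for CCN1, and the groups were well apart. AMOTL2 fell 1.77-fold (log2 fold change -0.83, SE 0.15, adjusted p = 0.030). Its paralogs AMOT and AMOTL1, with log2 fold changes of -0.27 and -0.066, did not pass.

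AJUBA, a LIM domain protein that binds LATS kinases and restrains them (chromosome 14, 22971174 to 22982642), had 78.3 and 78.2 TPM in the knockouts, against 109 and 111 TPM in the controls. The replicates of each group nearly coincided, and the groups were separate. AJUBA fell by 0.48 on the log2 scale (SE 0.065, adjusted p = 0.020). LIMD1, a relative of AJUBA in the same LIM family, rose to 9.41 and 13.4 TPM in the knockouts, against 5.90 and 5.49 TPM in the controls (2.01-fold, adjusted p = 0.045). AJUBA remained several times more abundant than LIMD1 in each library by TPM.

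LATS2, the kinase that phosphorylates YAP and TAZ (chromosome 13, 20973032 to 21061547), had 21.6 and 18.7 TPM in the knockouts, against 28.6 and 28.6 TPM in the controls. Both knockouts were below both controls, and LATS2 fell by 0.49 on the log2 scale (SE 0.11, adjusted p = 0.045). This call lay nearest the threshold of the 8, and it did not pass with scaling by the median ratio (adjusted p = 0.058) or quantile normalization (adjusted p = 0.065). Its paralog LATS1 had 10.7 and 7.32 TPM in the knockouts, against 13.4 and 11.8 TPM in the controls (log2 fold change -0.46, adjusted p = 0.16), and did not pass. PTPN14, a tyrosine phosphatase that binds YAP (chromosome 1, 214348696 to 214552449), had 53.8 and 50.5 TPM in the knockouts, against 50.04 and 51.2 TPM in the controls. The groups overlapped, and the log2 fold change was 0.043 with a 95% interval of -0.16 to 0.25 (adjusted p = 0.72).

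**Figure D2:**
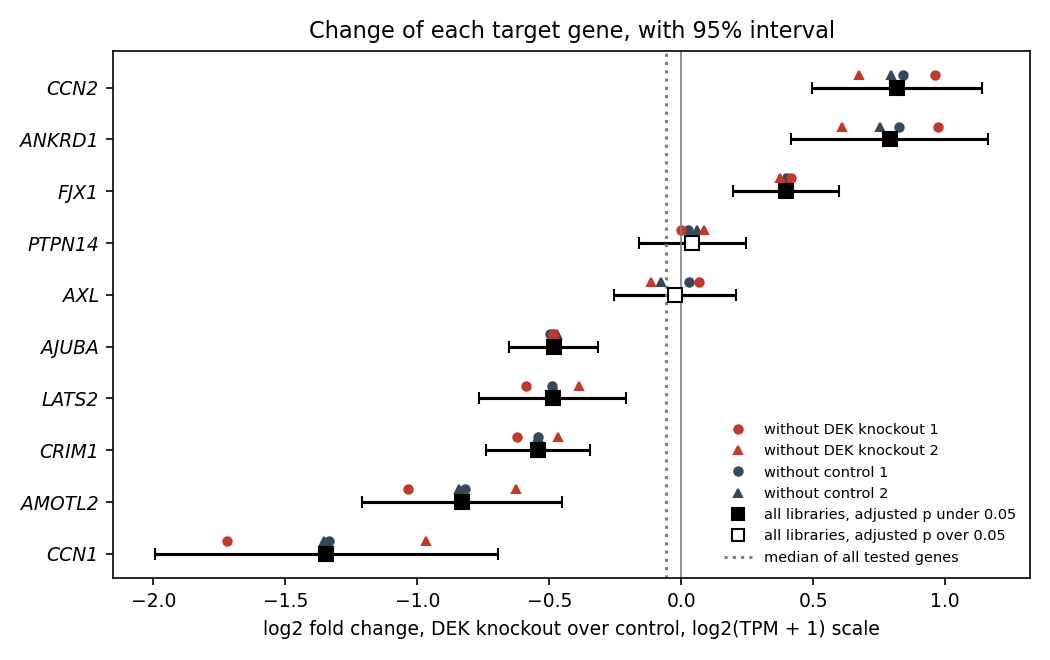
Log2 fold change of each target, DEK knockout over control, on the log2(TPM + 1) scale. Squares give the estimate from all libraries with its 95% interval, filled where the adjusted p was under 0.05, and small symbols give the estimate with 1 library left out. Values run from -1.34 for CCN1 to 0.82 for CCN2, and leaving out a knockout shifts CCN1, AMOTL2, CCN2 and ANKRD1 more than leaving out a control does.

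Each of the 8 calls was lost when either control library was left out, and all kept their direction. Without control 1, 0 of the 10 genes passed limma and 7 had an unadjusted p under 0.05, and without control 2 there were 0 and 6. The 8 also kept their direction without either knockout. For each of the 8 both knockouts lay on the same side of both controls, so leaving out 1 library could not reverse it. A fit with 1 library left in a group takes its spread from the other group alone, for all tested genes alike. Such fits therefore say little about these 10 genes in particular. With no filter beyond a value above 0, 0 of the 10 passed and 8 had an unadjusted p under 0.05. With no trend in limma's variance prior only CCN2 passed, and at a threshold of 0.01 none of the 10 did, while 8 had an unadjusted p under 0.05.

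The knockouts were not equally far from the controls. For all 8 targets that passed, knockout 2 lay further from the control mean than knockout 1, by the smallest margin for AJUBA. The same held for 75.2% of all 2804 genes that passed, so a lean to knockout 2 was common in these libraries. Knockout 2 also had the lower DEK level, and whether the lean follows that level was not tested. On the log2(TPM + 1) scale the knockouts differed by 0.76 for CCN1, by 0.41 for AMOTL2, by 0.36 for ANKRD1 and by 0.29 for CCN2. Over all tested genes the median absolute difference was 0.19 between the knockouts and 0.10 between the controls. Over the other tested genes of chromosome 1, which carries CCN1 and PTPN14, the median of knockout 2 minus knockout 1 was -0.17. Over all tested genes that median was 0.0017, and over the chromosomes of the remaining targets it lay between -0.075 and 0.076. Whether the gap of CCN1 is tied to its chromosome was not tested. The log2 fold change of CCN1 was -0.97 without knockout 2 and -1.72 without knockout 1.

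By mean level, CCN1, CRIM1 and AXL were the most abundant targets in both groups, followed by AMOTL2, AJUBA, PTPN14 and FJX1 in that order. In the knockouts the ranges of CRIM1 and AXL overlapped, those of AMOTL2 and AJUBA did too, and the range of ANKRD1 reached into those of PTPN14 and FJX1. The range of CCN2 spanned that of FJX1, and in knockout 2 CCN2 stood above FJX1 (48.6 against 48.1 TPM). In the controls no neighbours in the order had overlapping ranges. At the low end the order differed between groups. In the knockouts LATS2 stood last, below CCN2 and ANKRD1, whose ranges overlapped each other, whereas in the controls CCN2 stood last, below ANKRD1 and LATS2. Summed over the 10 genes, the targets held 1301 and 1098 TPM in the knockouts, against 1936 and 1906 TPM in the controls. CCN1 made up 37.3% and 26.2% of that sum in the knockouts, against 49.4% and 49.5% in the controls. Without CCN1 the sum was 815 and 810.3 TPM in the knockouts, against 979 and 962 TPM in the controls.

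Genes around the targets on their chromosomes were compared next, because the knockouts were clones. Among the 20 tested genes nearest CCN1, 10 on each side, the median log2 fold change was -0.41, with 0 rising and 2 falling, and the median of chromosome 1 was -0.17. CCN1 fell well beyond both medians, but the spread of single neighbours around them is not given. The neighbours of CRIM1 also had a median below 0 (-0.31), as did those of PTPN14 (-0.36) and CCN2 (-0.28), and PTPN14 and CCN2 stood above theirs. For ANKRD1, AMOTL2, AJUBA, LATS2 and AXL the neighbour medians lay between -0.064 and 0.048, and for FJX1 the median was -0.15. Whether copy number of these regions differs between the cells was not tested.

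**Figure D3:**
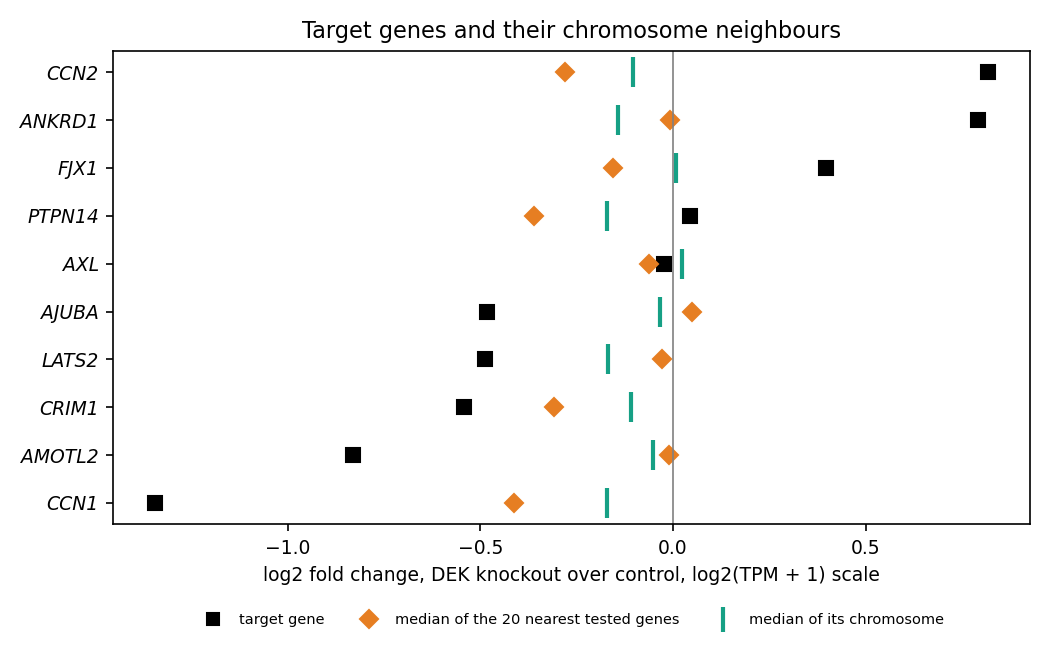
Log2 fold change, DEK knockout over control, on the log2(TPM + 1) scale, of each target (black square), the median of its 20 nearest tested genes (orange diamond) and the median of its chromosome (green bar). The neighbour medians lie between -0.41 and 0.048, and the 8 targets that passed the test lie outside that range. These 8 were picked by their change, and a median of 20 genes varies less than a single gene. The plot therefore cannot show whether they differ from single neighbours.

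The other genes of the pathway are given by list, and each count is to be read against the 17.7% of all tested genes that passed, or the 24.6% of those with a mean of at least 20 TPM. Among the coactivators and DNA-binding partners, WWTR1, which encodes TAZ, fell, with 115 and 112 TPM in the knockouts, against 153 and 148 TPM in the controls (1.32-fold lower, log2 fold change -0.40, adjusted p = 0.027). YAP1 had 53.5 and 52.4 TPM in the knockouts, against 60.5 and 51.8 TPM in the controls (log2 fold change -0.080, adjusted p = 0.60), with overlapping groups. TEAD1 had 41.2 and 39.0 TPM in the knockouts, against 41.8 and 41.4 TPM in the controls (adjusted p = 0.67). TEAD4 had 30.8 and 35.4 TPM in the knockouts, against 51.6 and 43.8 TPM in the controls (log2 fold change -0.51, adjusted p = 0.053), and just missed the threshold. TEAD3, with a log2 fold change of 0.25, did not pass (adjusted p = 0.18), and TEAD2 was at 0.120 TPM or lower in every library. In this group 1 of 5 tested genes fell and 0 rose, a share near that of all tested genes. Among vestigial-like cofactors of TEAD, VGLL4 did not pass (log2 fold change -0.10), and VGLL1, VGLL2 and VGLL3 were at or near 0.

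Of 12 kinase core genes other than LATS2, 1 rose and 2 fell, and their median log2 fold change was -0.41, against -0.058 for all tested genes. Of all tested genes 17.7% passed, and of those with a mean of at least 20 TPM 24.6% passed. The list holds genes on both sides of that level, and both genes that fell were below it in every library. MAP4K4, a kinase that can act on LATS beside the MST kinases, had 152 and 171 TPM in the knockouts, against 98.4 and 104 TPM in the controls (1.59-fold, adjusted p = 0.019). SAV1, the scaffold of the MST kinases, fell to 4.84 and 4.84 TPM in the knockouts, against 9.78 and 8.90 TPM in the controls (1.93-fold lower, adjusted p = 0.025). STK3, which encodes MST2, fell to 8.41 and 7.34 TPM in the knockouts, against 13.6 and 12.9 TPM in the controls (1.68-fold lower, adjusted p = 0.033). STK4, which encodes MST1, did not pass (log2 fold change 0.13, adjusted p = 0.35).

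Of 23 tested upstream regulators other than the 10 targets, 2 rose and 5 fell, with a median of -0.11. CRB3, an apical polarity protein, fell to 3.30 and 0.840 TPM in the knockouts, against 16.4 and 14.7 TPM in the controls (7.49-fold lower, adjusted p = 0.027). The atypical cadherin FAT1 fell to 31.6 and 27.4 TPM in the knockouts, against 58.3 and 61.3 TPM in the controls (2.03-fold lower, adjusted p = 0.015). WWC2, a relative of KIBRA, fell by 0.67 on the log2 scale, MPP5, a partner of Crumbs proteins, by 0.60, and NF2, the tumour suppressor merlin, by 0.33. Those that rose were FRMD6, a FERM domain protein, with 21.2 and 27.0 TPM in the knockouts, against 14.3 and 12.5 TPM in the controls (1.79-fold, adjusted p = 0.036), and LIMD1.

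Among 12 tested YAP and TEAD targets outside the 10, 3 rose and 3 fell, and the median (-0.32) and mean (0.35) log2 fold change differed in sign. The genes that rose did so by more than any of the 10. F3, tissue factor, had 632 and 591 TPM in the knockouts, against 104 and 97.7 TPM in the controls, and NT5E, the ecto-enzyme CD73, had 60.1 and 109.6 TPM, against 8.90 and 9.59 TPM. GADD45A, a stress-induced gene that p53 also regulates, had 279 and 334 TPM in the knockouts, against 106 and 105 TPM in the controls (2.91-fold, adjusted p = 0.0089). ASAP1, MYOF and TGFB2 fell, by 0.44, 0.30 and 0.68 on the log2 scale. IGFBP3 was uneven, with 893 and 356 TPM in the knockouts, against 964 and 939 TPM in the controls, and did not pass (adjusted p = 0.26).

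CCN1 and CCN2 are also targets of serum response factor and its actin-sensing MRTF coactivators. Of 11 tested genes of that route, 3 rose and 0 fell, with a median of 0.31. Among all tested genes 17.7% passed, 9.06% upwards, and among those with a mean of at least 20 TPM 24.6% passed. Genes of this list lie on both sides of that level. ACTA2, smooth muscle actin, had 9.51 and 11.4 TPM in the knockouts, against 5.50 and 5.44 TPM in the controls (1.91-fold, adjusted p = 0.030). FHL2, a LIM protein, rose 1.54-fold and VCL, vinculin, 1.28-fold. SRF itself had 51.4 and 49.8 TPM in the knockouts, against 40.4 and 40.8 TPM in the controls (log2 fold change 0.31, adjusted p = 0.053), and did not pass. MRTFA and MRTFB, with log2 fold changes of 0.011 and -0.32, did not pass either. In the paralog and ligand list as a whole, 2 of 13 tested genes rose (GAS6 and LIMD1) and 3 fell (ANKRD2, KCP and PROS1).

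**Figure D4:**
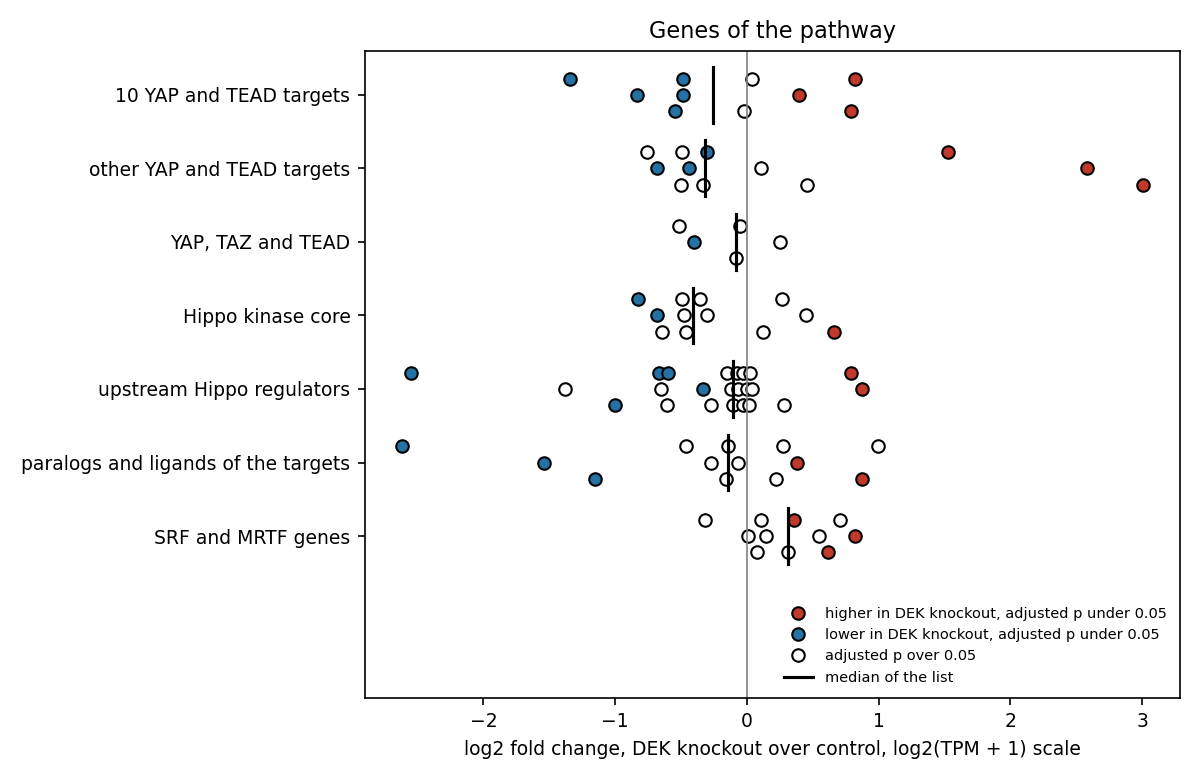
Log2 fold change, DEK knockout over control, on the log2(TPM + 1) scale, of every tested gene of each list, with genes of the first row left out of the others. Filled points had an adjusted p under 0.05 (red higher, blue lower in the knockout) and bars are list medians. Genes that rose and genes that fell occur side by side in the first row, the 10 targets, where 3 rose and 5 fell.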

How the data were processed

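RNA of 4 libraries (2 DEK knockout, 2 control, grouped by title) was measured. The authors deposited TPM for 59409 symbols, and each column sums to 1000000. Without giving their roles, the submitters' processing notes list the build hg38, featureCounts 2.0.1, DESeq2 1.36.0, STAR 2.7.8a and cutadapt 1.18. Annotation, gene lengths and strand use are not given in these sources.

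The 15815 genes that reached 1 TPM in 2 or more libraries were fitted as log2(TPM + 1) in limma 3.58.1 (R 4.3.3). Group was the sole term, and the variance prior followed mean expression. P-values were adjusted over all tested genes (Benjamini-Hochberg, threshold 0.05). The log2 scale with a pseudocount of 1 understates changes at low levels. Folds given without log2 are ratios of mean TPM. An exact permutation test of 2 against 2 libraries cannot go below p = 0.333. The procedure was also run on simulated data, with noise drawn from the spread between the controls. That spread was smaller than the one between the knockouts (median absolute log2 difference 0.10 against 0.19). The run therefore does not show how the calls fare at the spread of the knockouts. Positions are from GENCODE 29 (GRCh38), matched by name for 54390 symbols and through current symbols for 2209. PALS1 was matched as MPP5. A marker of the lists is withheld and is not reported here.

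The members and lists were chosen with earlier results of these data known. Named are all 10 targets, DEK, YAP1, WWTR1 and the TEAD genes, up to 4 genes with the smallest p among those that passed in each list, and the members of counts of 5 or fewer. Paralogs, ligands, pathway genes and markers named though they did not pass, and genes that overlap a target, were named after their values were seen. Alternatives covered pseudocounts of 0.1 and 0.5, filters, scaling, the variance prior, a replicate block, a threshold of 0.01, the GC trend and leaving out each library.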

Additional observations from a re-analysis of the deposited data

How the results depend on the processing

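Of all tested genes 2804 passed, of the 10 targets 8 and of the 73 other tested pathway genes 24. With no filter beyond a value above 0 these were 26, 0 and 1, with no trend in the variance prior 1437, 1 and 14, and at a threshold of 0.01 they were 90, 0 and 2. Leaving out 1 library at a time gave 0 to 5289 genes, 0 to 8 targets and 0 to 36 pathway genes. The 0 came without either control, where limma gave an unadjusted p under 0.05 for 2821 and 3194 of all genes. The highest came without knockout 1, with 5289 genes. The 8 targets that passed kept their direction under all 15 alternatives, but for many of these that was fixed in advance. The threshold, the variance prior, the replicate block and the filters leave the log2 fold change of a gene unchanged. Groups that do not overlap keep their direction when a library is left out or the pseudocount is changed. Only the scaling and GC settings could have reversed it. The sign of AXL, which did not pass, was reversed with median ratio scaling (0.014) and lay between -0.11 and 0.066 with libraries left out. PTPN14 lay between -0.0015 and 0.087 with libraries left out. Replicate numbers are shared between the groups, but same-numbered deviations correlated at only 0.099 over genes and the labels tie them to nothing. With the replicate block 2971 genes and 6 targets passed, and LATS2 and FJX1 did not (adjusted p = 0.051 and 0.055). The depth is unknown, and the precision rests on 2 libraries per group.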
